A study of Homo sapiens with 9 samples.

Results

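The matrix metalloproteinases and tissue inhibitors of metalloproteinases described here were 9 genes, MMP1, MMP2, MMP3, MMP9, MMP13, MMP14, TIMP1, TIMP2 and TIMP3. They were listed by name, but earlier results of these data were known when the list was written. They were found as 9 of the 24344 genes of the deposited count table. 7 of the 9 were among the 14195 genes with enough counts for testing, and MMP2 and MMP3 were not. Matrix metalloproteinases are zinc-dependent enzymes that cut collagens and other proteins of the extracellular matrix, and most are secreted as inactive precursors that must be cleaved before they act. The TIMPs are small secreted proteins that bind the active site of these enzymes and block it. In breast cancer the balance between enzymes and inhibitors is known for its part in invasion through basement membrane and stroma.

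Expression was read from unstranded paired-end libraries made from total RNA of MDA-MB-231, a widely used triple-negative cell line established from a human breast adenocarcinoma. For 48 h the cells received Compound Kushen Injection (CKI), which combines extracts of the herbs Kushen and Baituling, at 2 mg/mL of total alkaloids, or else Kushen injection or Baituling injection diluted to the equivalent of that concentration. Each injection had 3 libraries. Untreated cells were not analysed here, and every contrast sets a treated group against another treated group and gives no change from untreated cells. The study asked what each herb contributes to the combined injection. Nothing in the labels says that the 3 libraries of a group came from separate cultures, so p-values measure only the spread between these libraries, which may be technical.

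The 9 libraries held between 20144628 and 23782071 counts. Of the markers of the cell line, VIM, CD44, EGFR, AXL and CAV1 were each abundant in every library, SPARC was low, and the hormone receptor genes ESR1 and PGR were nearly absent. The summed level of 3 leukocyte markers stayed between 0.293 and 0.632 CPM (counts per scaled library size, defined in the next paragraph) in all libraries. The 6 markers an MDA-MB-231 culture should express summed to 2086 to 2128 CPM in CKI libraries, 2575 to 2605 CPM in Kushen libraries and 4676 to 4771 CPM in Baituling libraries, so their sum moved with the groups. For CKI over Baituling VIM had a log2 fold change of -2.56, and CD44, SPARC, AXL and CAV1 were lower too. EGFR went the other way, at 0.79. The 5 markers that should be low summed to 64.4 to 66.7 CPM in CKI, 70.0 to 74.5 CPM in Kushen and 117 to 121 CPM in Baituling, most of it ERBB2. For CKI over Baituling ERBB2 (log2 fold change -0.87), EPCAM (-0.81) and CDH1 (-1.34) were each lower. A pair of endothelial markers summed to 0.706 to 1.07 CPM in CKI, at most 0.577 CPM in Kushen and at most 0.331 CPM in Baituling. The 5 fibroblast markers summed to 54.6 to 58.1 CPM in CKI, 35.6 to 38.5 CPM in Kushen and 24.7 to 27.8 CPM in Baituling libraries. They did not move alike. For CKI over Baituling, LUM (log2 fold change 4.27), COL1A1 (1.13) and PDGFRB (1.13) were higher and COL1A2 (-1.04) was lower. DCN had 0 to 3 counts per library. The part of any of these shifts in the results was not tested. In bulk RNA, fewer cells of a type and less RNA per cell cannot be told apart.

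Levels are given as CPM, the counts of a gene brought to a common library size of 1e+06 counts after trimmed-mean (TMM) scaling. Differences are log2 fold changes of the group named first over the group named second, with their standard error (SE), from a single edgeR fit of all libraries. A gene was called differentially expressed (DE) when its Benjamini-Hochberg adjusted p over all genes tested was under 0.05 and its log2 fold change was beyond 1 in either direction.

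Between CKI and Kushen, the members that differed most were the interstitial collagenases MMP1 and MMP13, which were both higher in CKI. They were the 2 DE members of 7 tested, and 0 were lower, whereas 1.70% of all genes tested were called higher and 0.197% lower. With the adjusted p alone and no fold threshold, 3 members were higher in CKI (MMP1, MMP13 and TIMP1) and 2 were lower (TIMP2 and TIMP3), beside 19.6% and 20.2% of all genes. For 5 of the 7 members the CKI and Kushen libraries were fully separated, beside 49.5% of all genes, so separation of the libraries alone was common in this contrast.

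Between CKI and Baituling, 4 of the 7 members were DE. MMP1 and MMP13 were higher in CKI, and MMP14 and TIMP3 were lower. The background was 11.2% of genes called higher and 7.91% called lower. Without the fold threshold the members were 3 higher (MMP1, MMP13 and TIMP1) and 2 lower, beside 39.1% and 37.0% of all genes, and 5 members had groups that did not overlap, beside 78.3%. When library sizes were left at their totals, 3 members were called, 2 higher and 1 lower, since MMP14 then fell short of the fold threshold.

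Between Kushen and Baituling, MMP13 was higher in Kushen and MMP14 and TIMP3 were lower, so 3 of 7 members were DE, beside 8.50% of genes called higher and 6.73% called lower. Without the fold threshold 3 were higher (MMP13, TIMP1 and TIMP2) and 2 were lower, beside 35.6% and 36.1% of all genes. Again 5 members had groups that did not overlap, beside 73.1% of all genes. With library sizes at their totals, 2 members were called, 1 higher and 1 lower. The 3 contrasts share libraries, so a member's values in them are not independent.

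**Figure D1:**
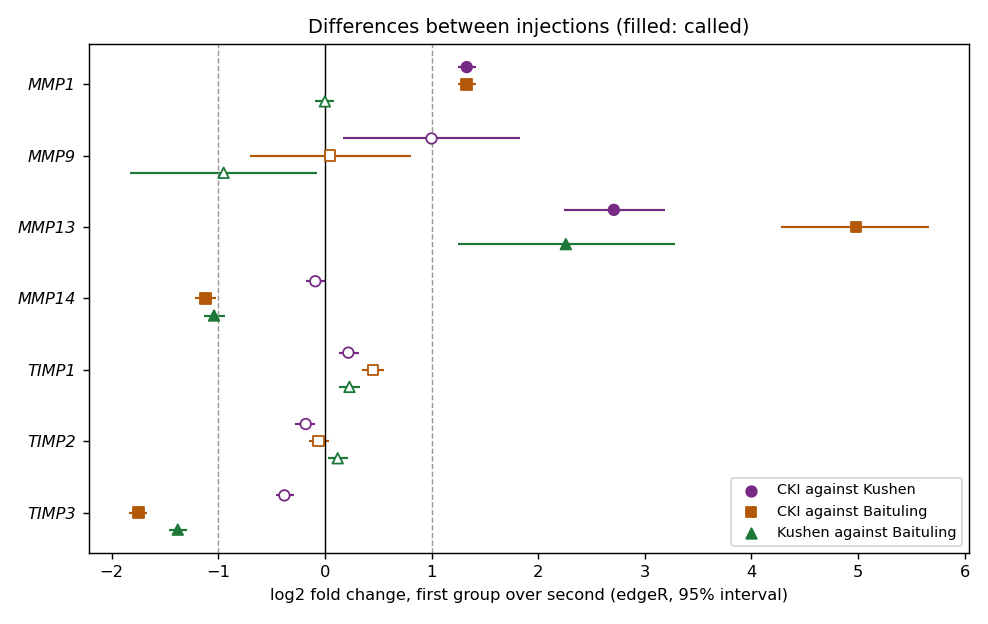
Log2 fold change (x axis, first group over second, with 95% interval) of the 7 tested members (y axis) in each of the 3 contrasts, where filled points are DE. MMP13 has the largest differences, up to 4.98, MMP1 sits at 1.33 in both contrasts with CKI and at 0.0 between Kushen and Baituling, and MMP14 and TIMP3 are lower in CKI and in Kushen than in Baituling.

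MMP1, interstitial collagenase or collagenase-1, opens the triple helix of fibrillar collagens. It lies on the minus strand of chromosome 11 at 102660132 to 102668891 (build GRCh37). Its level was 246, 258 and 262 CPM in the 3 CKI libraries, 97.8, 104 and 103 CPM in Kushen and 103, 102 and 98.9 CPM in Baituling. Every CKI library stood far above all 6 others, and the Kushen and Baituling libraries overlapped. The level was 255 ± 8.58 CPM (SD, n = 3) in CKI against 101.5 ± 3.27 CPM (SD, n = 3) in Kushen, a 2.52-fold difference with a log2 fold change of 1.33 ± 0.04 (SE, edgeR adjusted p = 3.79e-14). Against Baituling, at 101.3 ± 2.16 CPM (SD, n = 3), it was again 1.33 ± 0.04 (SE, edgeR adjusted p = 1.15e-15). Kushen and Baituling differed by a log2 fold change of 0.0 with a 95% interval of -0.09 to 0.09, so any difference between the injections of the separate herbs was small beside that to the combined injection. This interval and the overlap hold for TMM scaling. Unscaled library totals moved the median of all genes by 0.21 for Kushen over Baituling, which the interval does not cover. MMP1 lies within WTAPP1, a pseudogene on the opposite strand that strand-blind counting cannot separate from it, and WTAPP1 itself had 0 to 4 counts per library.

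MMP13, collagenase-3, cuts fibrillar collagens with a preference for type II and lies in the same cluster at 102813724 to 102826461 on the minus strand. It was far less abundant than MMP1. Its counts were 106, 93 and 107 in CKI, 22, 11 and 11 in Kushen and 1, 2 and 4 in Baituling. The groups did not overlap, and their order was CKI, Kushen, Baituling. In CPM the CKI, Kushen and Baituling means were 4.04 ± 0.259, 0.608 ± 0.241 and 0.126 ± 0.0872 (SD, n = 3 each). The log2 fold change was 2.71 ± 0.24 for CKI over Kushen (SE, 6.56-fold, edgeR adjusted p = 7.14e-08) and 4.98 ± 0.36 for CKI over Baituling (SE, 31.5-fold, edgeR adjusted p = 1.53e-10). For Kushen over Baituling it was 2.26 ± 0.52 (SE, 4.8-fold, edgeR adjusted p = 0.00067), a contrast between 44 and 7 counts in all.

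The sums of MMP13 counts show how firm these folds are. The 306 counts of CKI against 7 of Baituling gave a ratio of 32.9 after scaling, with an exact 95% binomial interval of 15.8 to 82.4, and the 44 counts of Kushen against the same 7 gave 4.98 with an interval of 2.22 to 13.1. Reads are not independent molecules, so such intervals cover counting error only. The Baituling libraries lay under the minimum of 10 counts, and MMP13 entered the test through the groups where it was higher.

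**Figure D2:**
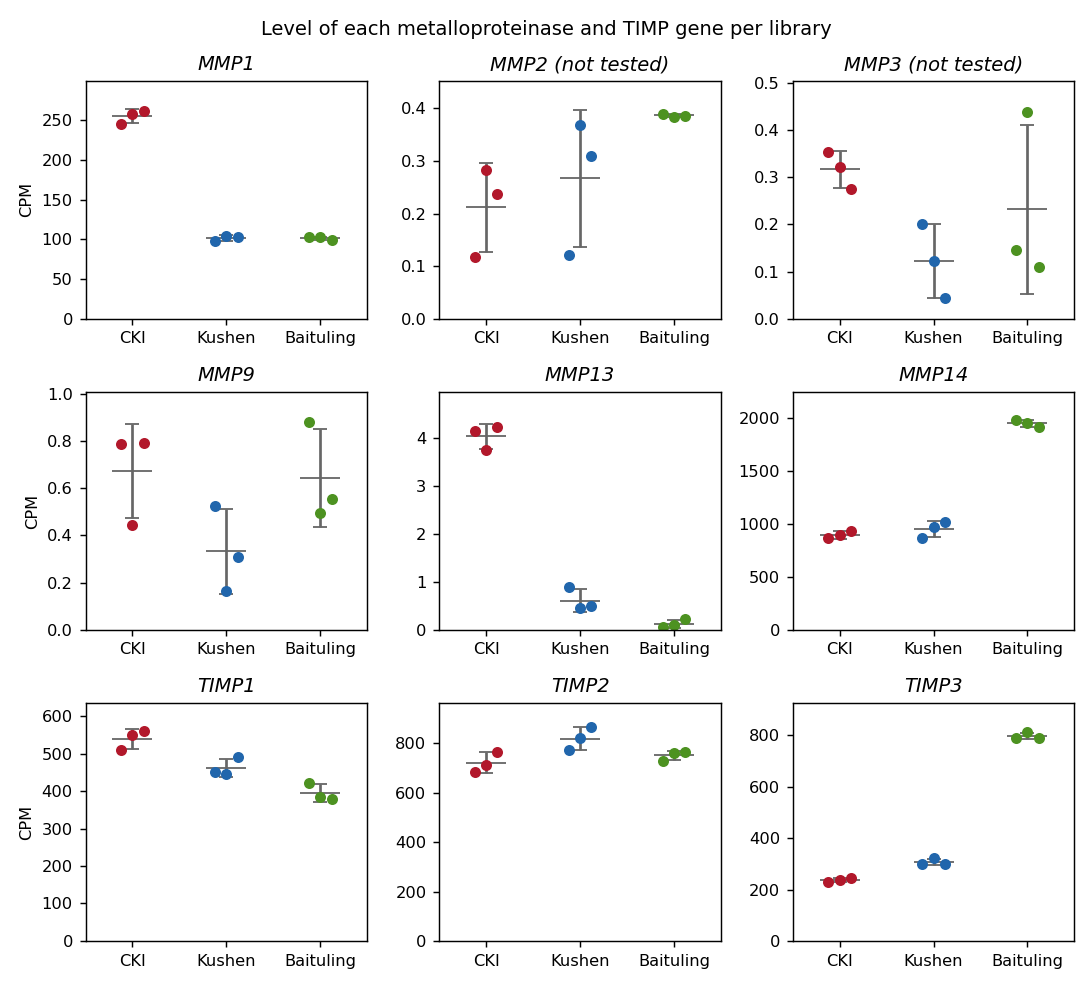
Level in CPM (y axis, from 0, each panel with its own scale) of each of the 9 members in each library (points) of CKI, Kushen and Baituling (x axis), with group means as lines and SD as bars. MMP1 and MMP13 are highest in all 3 CKI libraries, while MMP14 and TIMP3 are highest in all 3 Baituling libraries.

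MMP2 (gelatinase A) and MMP9 (gelatinase B) cut denatured collagen and basement membrane collagen IV, and both were near the limit of detection. MMP2, on the plus strand of chromosome 16 at 55423612 to 55540603, had 3, 7 and 6 counts in CKI, 3, 9 and 7 in Kushen and 8, 7 and 7 in Baituling. It was not tested in the main fit, and in a fit with no filter on low counts its largest log2 fold change was -0.86, for CKI over Baituling (edgeR adjusted p = 0.233). The ratio of summed counts had an exact 95% binomial interval of 0.268 to 1.09 there, which included no difference.

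MMP9, on the plus strand of chromosome 20 at 44637547 to 44645200, had 20, 11 and 20 counts in CKI, 13, 4 and 7 in Kushen and 18, 9 and 10 in Baituling. Kushen libraries tended to be lowest, but all pairs of groups overlapped. The log2 fold change of CKI over Kushen was 1.0 ± 0.42 (SE, edgeR adjusted p = 0.0666), and that of Kushen over Baituling was -0.95 ± 0.45 (SE, edgeR adjusted p = 0.0655). These values hung on single libraries. Without the first Kushen library they were 1.5 (edgeR adjusted p = 0.0239) and -1.45 (edgeR adjusted p = 0.0199), and without the second CKI library the value against Kushen was 1.22 (edgeR adjusted p = 0.044). Without the second Kushen library they were 0.67 (edgeR adjusted p = 0.251) and -0.62 (edgeR adjusted p = 0.241), and without the first Baituling library the value for Kushen over Baituling was -0.63 (edgeR adjusted p = 0.305). CKI and Baituling differed by 0.05 ± 0.39 (SE, edgeR adjusted p = 0.906), a value that changed sign when single libraries were left out.

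MMP3, stromelysin-1, cuts proteoglycans, fibronectin and laminin and can cleave the precursors of MMP1 and MMP9. It lies at 102706532 to 102714340 on the minus strand of chromosome 11. Counts were 9, 8 and 7 in CKI, 5, 3 and 1 in Kushen and 3, 8 and 2 in Baituling. CKI libraries were above all Kushen libraries, and Baituling overlapped both. The ratio of summed counts for CKI over Kushen, 24 to 9, was 2.53 (exact 95% binomial interval 1.14 to 6.19). In the fit with no filter on low counts the log2 fold change was 1.3 ± 0.69 (SE, edgeR adjusted p = 0.156), which did not pass the threshold.

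MMP14, the membrane-anchored collagenase MT1-MMP, cuts collagen at the cell surface and activates the MMP2 precursor in a complex with TIMP2. It lies on the plus strand of chromosome 14 at 23305769 to 23318250. Its level was 862, 891 and 932 CPM in CKI, 865, 966 and 1019 CPM in Kushen and 1977, 1952 and 1911 CPM in Baituling. The Baituling libraries stood apart above the rest, and CKI and Kushen overlapped. The means were 895 ± 35.3, 949.9 ± 78.4 and 1947 ± 33.2 CPM (SD, n = 3 each). The log2 fold change was -1.12 ± 0.05 for CKI over Baituling (SE, edgeR adjusted p = 1.45e-13) and -1.04 ± 0.05 for Kushen over Baituling (SE, edgeR adjusted p = 6.96e-13). CKI and Kushen differed by -0.09 ± 0.05 (SE, edgeR adjusted p = 0.187), with a 95% interval of -0.18 to 0.01.

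The DE call of MMP14 lay near the fold threshold. With unscaled library totals, which moved the median of all genes by 0.29 for CKI over Baituling and 0.21 for Kushen over Baituling, the log2 fold changes of MMP14 were -0.83 and -0.82. Without the first Kushen library the value for Kushen over Baituling was -0.97. The direction and the adjusted p under 0.05 stayed in each of these fits, and only the fold threshold was missed.

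TIMP1, the inhibitor of most secreted metalloproteinases, lies on the plus strand of chromosome X at 47441807 to 47446188. Its level was 509.8, 550.5 and 560.0 CPM in CKI, 451, 447 and 489.7 CPM in Kushen and 421, 383 and 379 CPM in Baituling. The groups did not overlap and followed the same order as MMP13, CKI, Kushen, Baituling, with much smaller steps. The log2 fold changes were 0.22 ± 0.05 for CKI over Kushen (SE, edgeR adjusted p = 0.00157), 0.45 ± 0.05 for CKI over Baituling (SE, edgeR adjusted p = 1.15e-07) and 0.23 ± 0.05 for Kushen over Baituling (SE, edgeR adjusted p = 0.000477). None of these passed the fold threshold. TIMP1 lies within SYN1 on the opposite strand, which had 1 to 17 counts per library.

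TIMP2, which inhibits secreted and membrane-type enzymes and also takes part in MMP2 activation by MMP14, lies on the minus strand of chromosome 17 at 76849059 to 76921469. It was the most even of the tested members. Its level was 684, 714 and 766 CPM in CKI, 773, 819.7 and 865 CPM in Kushen and 729.9, 759.6 and 765 CPM in Baituling. Kushen libraries were the highest, by a narrow margin over the top CKI and Baituling libraries. The log2 fold change was -0.18 ± 0.05 for CKI over Kushen (SE, edgeR adjusted p = 0.00486) and 0.12 ± 0.05 for Kushen over Baituling (SE, edgeR adjusted p = 0.0261). CKI and Baituling differed by -0.06 ± 0.05 (SE, edgeR adjusted p = 0.272), with a 95% interval of -0.15 to 0.04, and this value turned to 0.23 with unscaled library totals (edgeR adjusted p = 7.06e-05) and to 0.01 with upper quartile scaling.

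TIMP3 differs from the other inhibitors in binding to the extracellular matrix, and it also inhibits ADAM and ADAMTS proteases. It lies on the plus strand of chromosome 22 at 33197691 to 33259028. Its level was 228, 239 and 244 CPM in CKI, 300.1, 322 and 301 CPM in Kushen and 792, 812 and 792 CPM in Baituling. The groups did not overlap, and the gap below Baituling was by far the larger. The log2 fold change was -0.38 ± 0.04 for CKI over Kushen (SE, edgeR adjusted p = 1.35e-06), -1.75 ± 0.04 for CKI over Baituling (SE, 3.37-fold lower, edgeR adjusted p = 2e-17) and -1.38 ± 0.04 for Kushen over Baituling (SE, 2.59-fold lower, edgeR adjusted p = 8.13e-16). TIMP3 lies within SYN3 on the opposite strand, which had 0 to 10 counts per library.

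Promoter sequences from RefSeq (assembly GRCh38.p14) were matched for 3 of the 9 members, MMP14, TIMP1 and TIMP3. They are shown as the members with an entry, beside those of MMP10, a neighbour of MMP1 on chromosome 11, and of TIMP4, the remaining gene of the TIMP family. Each run is the 250 bases before the start site, read 5′ to 3′ on the gene's strand. Capitals mark matches on either strand to TGANTCA (the AP-1 site bound by FOS and JUN dimers), CAGGAA (a core bound by ETS factors), GGGCGG (the GC box bound by SP1) and TATAAA (the TATA box).
MMP14 (chr14:22836335-22836584, plus strand): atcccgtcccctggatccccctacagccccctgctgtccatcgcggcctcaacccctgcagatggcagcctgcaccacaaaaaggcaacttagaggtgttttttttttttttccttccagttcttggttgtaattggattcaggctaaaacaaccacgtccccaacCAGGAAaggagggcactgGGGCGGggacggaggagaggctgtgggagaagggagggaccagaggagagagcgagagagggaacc
TIMP1 (chrX:47582186-47582435, plus strand): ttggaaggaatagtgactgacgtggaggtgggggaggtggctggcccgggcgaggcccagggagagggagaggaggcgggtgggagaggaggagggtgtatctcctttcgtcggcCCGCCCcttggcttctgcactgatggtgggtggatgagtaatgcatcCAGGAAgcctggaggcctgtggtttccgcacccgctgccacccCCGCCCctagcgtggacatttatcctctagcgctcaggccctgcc
TIMP3 (chr22:32801455-32801704, plus strand): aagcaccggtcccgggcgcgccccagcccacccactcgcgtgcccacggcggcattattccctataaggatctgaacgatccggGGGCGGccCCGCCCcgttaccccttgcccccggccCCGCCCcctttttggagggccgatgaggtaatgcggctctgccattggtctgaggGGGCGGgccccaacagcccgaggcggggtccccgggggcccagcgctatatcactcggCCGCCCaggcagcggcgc
MMP10 (chr11:102780629-102780878, minus strand): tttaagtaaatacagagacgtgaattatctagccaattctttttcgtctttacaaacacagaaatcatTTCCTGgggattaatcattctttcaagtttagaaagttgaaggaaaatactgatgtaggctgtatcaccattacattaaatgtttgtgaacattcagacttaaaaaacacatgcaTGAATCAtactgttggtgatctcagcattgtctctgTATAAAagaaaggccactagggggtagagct
TIMP4 (chr3:12158913-12159162, minus strand): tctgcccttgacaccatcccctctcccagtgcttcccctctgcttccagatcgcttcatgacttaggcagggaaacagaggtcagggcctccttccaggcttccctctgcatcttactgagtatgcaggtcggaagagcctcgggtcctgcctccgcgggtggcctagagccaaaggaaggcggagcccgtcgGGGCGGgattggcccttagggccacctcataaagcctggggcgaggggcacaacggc

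Counting back from the start site, MMP14 had an ETS core at -84 and a GC box at -66. TIMP1 had an ETS core at -88 and GC boxes at -135 and -45, and TIMP3 had GC boxes at -166, -158, -131, -76 and -18. None of these 3 member windows held the AP-1 or TATA letters. MMP10 held an AP-1 match at -67, an ETS core at -182 and a TATA match at -31, and no GC box. TIMP4 held a GC box at -57 and none of the other letters. The MMP10 window was poorer in G and C, at 34.4%, than those of MMP14 (56.8%), TIMP1 (64.8%), TIMP3 (72.4%) and TIMP4 (62.8%), beside a median of 58.0% over all promoters. Of 34788 promoter windows of the same length, 6.59% held an AP-1 match, 24.1% an ETS core, 42.6% a GC box and 10.8% a TATA match. These are matches of letters and not measured binding.

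To compare the members with each other, levels were also divided by the length of the union of a gene's exons (CPM per kb). On this per-length scale the order in CKI was TIMP1 (373.5 ± 18.5), MMP14 (194 ± 7.63), TIMP2 (116 ± 6.69), MMP1 (93.2 ± 3.13) and TIMP3 (51.6 ± 1.8, SD, n = 3 each). MMP13 followed at 1.43, MMP9 at 0.288, MMP3 at 0.171 and MMP2 at 0.0451 CPM per kb. In CKI only MMP9 and MMP3 met, at 0.19 CPM per kb, and other neighbours in the order did not overlap.

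In Kushen the order per length was TIMP1 (319.8 ± 16.4), MMP14 (205.5 ± 17.0), TIMP2 (132 ± 7.4), TIMP3 (66.9 ± 2.69) and MMP1 (37.1 ± 1.2, SD, n = 3 each). The rare MMP13, MMP9, MMP3 and MMP2 each overlapped with their neighbour in the order. In Baituling MMP14 came first at 421 ± 7.17 CPM per kb, ahead of TIMP1 at 273 ± 16.2, TIMP3 at 174 ± 2.51, TIMP2 at 121 ± 3.03 and MMP1 at 37.0 ± 0.789 (SD, n = 3 each). MMP13 was the lowest of all 9 there, at 0.0446 CPM per kb. TIMP3 stood above TIMP2 in Baituling only by this measure of length, and with the longest transcript TIMP2 was higher, at 206 against 174 CPM per kb.

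Summed over the 6 metalloproteinases, the level per length in CPM per kb was 289 ± 10.6 for CKI, 243 ± 17.8 for Kushen and 459 ± 7.99 for Baituling (SD, n = 3 each). The sum was nearly all MMP14 and MMP1. MMP1 made up 32.3% ± 0.338 of it in CKI libraries, 15.3% ± 0.74 in Kushen libraries and 8.07% ± 0.0469 in Baituling libraries (SD, n = 3 each), and MMP14 made up 67.0%, 84.5% and 91.8%. So, among these 6 genes, the share of the secreted collagenase MMP1 was largest in CKI libraries. The membrane-anchored MMP14 made up most of the sum in every group, with its largest share in Baituling libraries.

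The summed level of the 3 TIMPs varied less, with 541 ± 26.3 CPM per kb under CKI, 519 ± 21.9 under Kushen and 567 ± 12.3 under Baituling (SD, n = 3 each). Their makeup differed more than their sum. TIMP1 was 69.0% of it in CKI, 61.6% in Kushen and 48.0% in Baituling, TIMP3 was 9.53%, 12.9% and 30.6%, and TIMP2 stayed between 21.3% and 25.4%. As a description with no test, the ratio of MMP1 to TIMP1 per length was 0.247 to 0.255 in CKI libraries, 0.111 to 0.123 in Kushen libraries and 0.129 to 0.141 in Baituling libraries. The ratio of MMP14 to TIMP2, the partners in MMP2 activation, ranged from 1.63 to 1.69 for CKI, from 1.5 to 1.58 for Kushen and from 3.36 to 3.64 for Baituling. The ratio of MMP14 to TIMP3 was instead lowest in Baituling libraries, with 3.71 to 3.8 in CKI libraries, 2.86 to 3.37 in Kushen libraries and 2.39 to 2.48 in Baituling libraries.

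**Figure D3:**
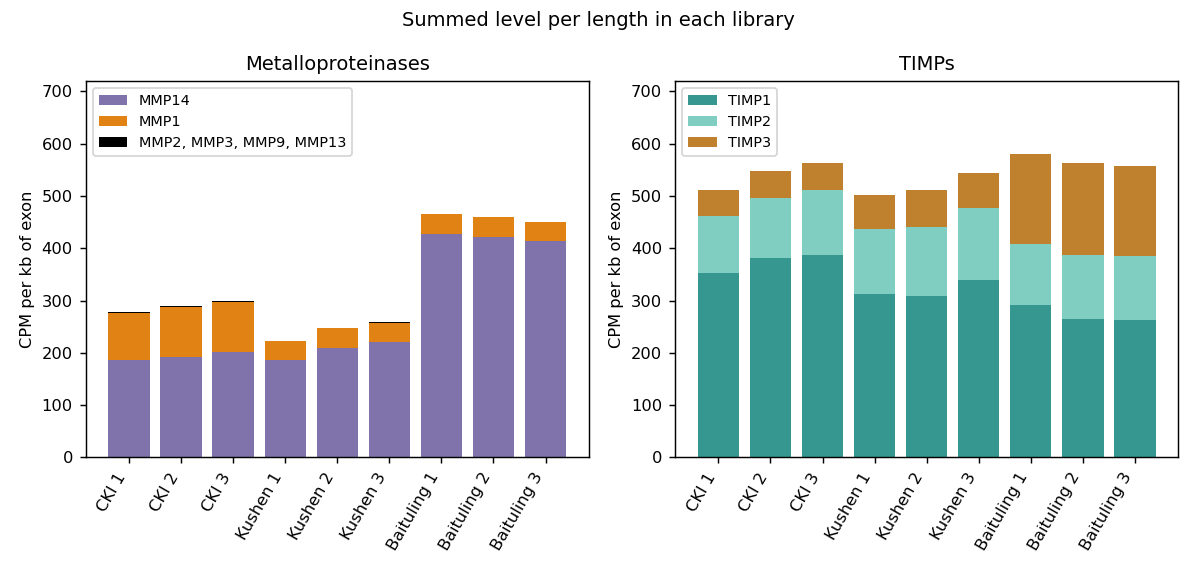
Summed level per length (y axis, CPM per kb of exon, from 0) of the metalloproteinases and of the TIMPs in each of the 9 libraries (x axis), stacked by gene. The metalloproteinase bars are tallest in Baituling at 450.0 to 465.8 and consist mostly of MMP14, while the TIMP bars are alike in height, at 501.7 to 581.2 in all libraries, and hold more TIMP3 in Baituling.

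MMP1, MMP3 and MMP13 belong to a cluster of metalloproteinase genes on chromosome 11 that runs from the start of MMP7 at 102391239 to the end of MMP13 at 102826461. Their neighbours MMP20 and MMP27 had 0 counts in all 9 libraries, and MMP8 was not tested, with 10 counts in the 3 Baituling libraries as its highest sum. MMP10 (stromelysin-2), too low for the main test, had 37 counts in CKI, 4 in Kushen and 12 in Baituling. In the fit with no filter on low counts the log2 fold change of MMP10 for CKI over Kushen was 3.0 ± 0.74 (SE, edgeR adjusted p = 0.000384), a ratio of summed counts of 8.78 (exact 95% binomial interval 3.15 to 33.9). It was 1.18 ± 0.6 for CKI over Baituling (SE, edgeR adjusted p = 0.0841) and -1.82 ± 0.9 for Kushen over Baituling (SE, edgeR adjusted p = 0.0782).

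MMP7 (matrilysin), at the far end of the cluster, had its lowest mean in Kushen. It had 6, 13 and 7 counts in CKI, 7, 4 and 5 in Kushen and 19, 5 and 19 in Baituling, so the groups overlapped. It was lower in CKI than in Baituling by a log2 fold change of -1.12 ± 0.46 (SE, edgeR adjusted p = 0.0326) and lower in Kushen by -1.74 ± 0.51 (SE, edgeR adjusted p = 0.00475). Between CKI and Kushen its log2 fold change was 0.61 ± 0.57 (SE, edgeR adjusted p = 0.414). The tested neighbours within 500000 bases did not move together. BIRC3, an inhibitor of apoptosis, had log2 fold changes of 0.95 ± 0.05 for CKI over Kushen (SE, edgeR adjusted p = 5.87e-11) and for CKI over Baituling of 0.73 ± 0.05 (SE, edgeR adjusted p = 7.34e-11). BIRC2, next to it, had values of 0.26 and 0.09 (edgeR adjusted p = 7.99e-05 and 0.0524). TMEM123, the tested gene nearest to MMP7 on that side, had -0.18 and -0.2 (edgeR adjusted p = 0.00121 and 0.000126), YAP1, a coactivator of the Hippo pathway, had 0.09 and -0.37 (edgeR adjusted p = 0.118 and 1.21e-07) and CFAP300 had -0.21 and 0.52 (edgeR adjusted p = 0.35 and 0.0202). The nearest gene beyond MMP13, DCUN1D5, had a log2 fold change of 0.01 for CKI over Kushen (edgeR adjusted p = 0.875).

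**Figure D4:**
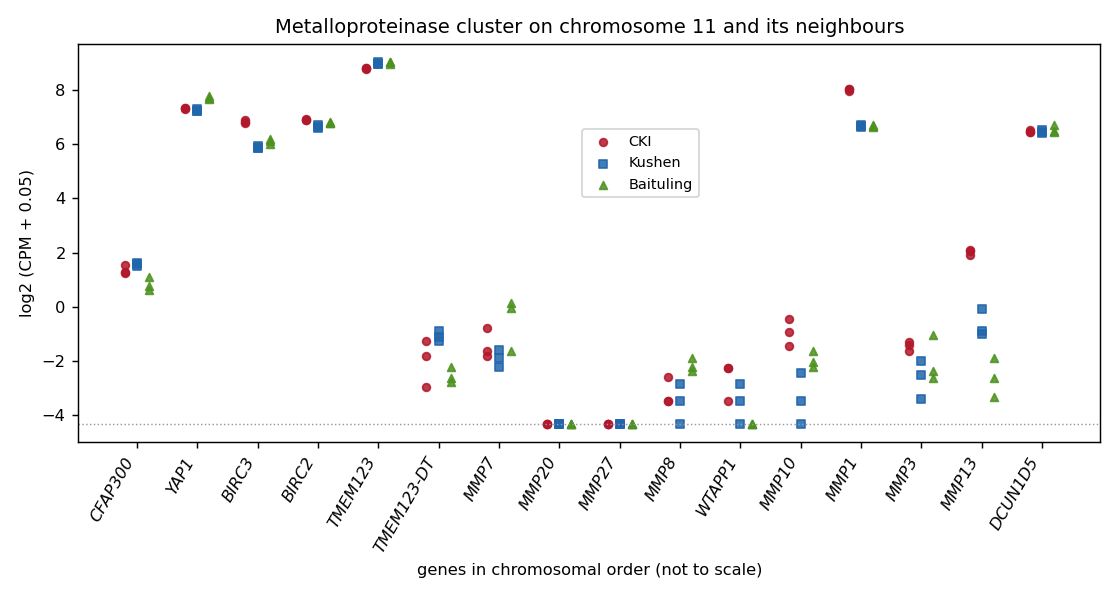
Level as log2 of CPM plus 0.05 (y axis) of the metalloproteinase cluster on chromosome 11 and its neighbours, in chromosomal order (x axis, not to scale), with 1 point per library coloured by injection and a dotted line at 0 counts. MMP1, MMP13 and MMP10 are highest in CKI, MMP20 and MMP27 lie at 0 counts, and the points of the flanking gene DCUN1D5 overlap across injections.

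Other genes of the same system were read from 7 lists written by name, also with earlier results of these data known. They held 129 genes, of which 104 were tested. In CKI over Kushen 10 were called higher and 0 lower, beside 1.70% and 0.197% of all genes. Of the 10, A2M, SPOCK2 and COL3A1 had few counts and entered the test through the CKI libraries alone. In CKI over Baituling 17 were higher and 11 lower, beside 11.2% and 7.91%, and in Kushen over Baituling 10 were higher and 16 lower, beside 8.50% and 6.73%. The counts of each list below are to be read against these same shares. With unscaled library totals the splits were 10 to 0, 23 to 6 and 13 to 12. The genes named below from each list are the called ones with the smallest adjusted p that were not rare, unless stated otherwise.

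Of 17 other metalloproteinases 8 were tested, and their median log2 fold change was 0.13, 0.62 and 0.47 in the 3 contrasts, beside 0.01, 0.03 and 0.02 for all genes. None was called between CKI and Kushen. In CKI over Baituling 3 were higher and 1 lower, and in Kushen over Baituling 1 was higher and 1 lower, the lower gene being MMP7 in both. The 3 higher genes were MMP15 and, named after their values were seen, MMP16 and MMP25, which had few counts. MMP16 had 11 to 17 counts per library in Baituling and MMP25 had 5 to 10. MMP25 entered the test through the groups where it was higher. MMP15, another membrane-type enzyme, was at 58.2 to 69.5 CPM in CKI, at 54.3 to 70.8 CPM in Kushen and at 30.3 to 31.5 CPM in Baituling. It was higher than in Baituling by a log2 fold change of 1.05 ± 0.08 in CKI (SE, edgeR adjusted p = 8.62e-10) and 1.06 ± 0.08 in Kushen (SE, edgeR adjusted p = 1.1e-09), the opposite direction to its relative MMP14.

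The list of other inhibitors of metalloproteinases, 8 tested of 9, also held PCOLCE and the cysteine protease inhibitor CST3. In this list 2 were called higher in CKI over Kushen, 4 in CKI over Baituling and 3 in Kushen over Baituling, with 0 lower in each. The 2 in CKI over Kushen were A2M and SPOCK2, which were also among those called in the other contrasts. Both had few counts and entered the test through the CKI libraries alone, so these tallies and the medians rest partly on rare genes. The list median log2 fold change was 0.34, 1.18 and 0.64. By adjusted p alone 3, 6 and 5 were higher, beside 19.6%, 39.1% and 35.6% of all genes. In each contrast 2 were lower, beside 20.2%, 37.0% and 36.1%. For CKI over Baituling these were CST3 (-0.87) and PCOLCE (-0.88). TIMP4 was at 5.84 to 6.87 CPM in CKI, at 5.11 to 6.11 CPM in Kushen and at 1.1 to 1.32 CPM in Baituling. It was 5.32-fold higher in CKI than in Baituling (log2 fold change 2.41 ± 0.17, SE, edgeR adjusted p = 8.15e-11), which was opposite in direction to TIMP3. TIMP4 lies within SYN2 on the opposite strand, and SYN2 also had fewer counts in Baituling, 3 to 6 per library against 13 to 26 in the other groups. TFPI2, a matrix-bound protease inhibitor, was at 156 CPM in CKI, 99.4 CPM in Kushen and 55.7 CPM in Baituling, with a log2 fold change of 1.49 ± 0.04 for CKI over Baituling (SE, edgeR adjusted p = 1.95e-16). A2M, a broad protease trap that was named after its values were seen, had 132, 29 and 3 counts in all in the 3 groups.

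Proteases of the ADAM and ADAMTS families, many of which TIMP3 inhibits, numbered 16 tested of 20. None was called between CKI and Kushen. In CKI over Baituling 2 were higher and 1 lower, near the background of 11.2% and 7.91%, and in Kushen over Baituling 3 were higher and 1 lower, beside 8.50% and 6.73%. ADAMTS1, a proteoglycan-cutting enzyme, was at 21.0 to 22.3 CPM in CKI, at 22.8 to 24.3 CPM in Kushen and at 56.9 to 67.0 CPM in Baituling, a log2 fold change of -1.51 ± 0.06 for CKI over Baituling (SE, edgeR adjusted p = 5.28e-14). ADAM28 was higher in CKI than in Baituling by 2.1 ± 0.23 (SE, edgeR adjusted p = 6.44e-08). ADAMTS7 was higher in Kushen than in Baituling by 1.27 ± 0.13 (SE, edgeR adjusted p = 2.98e-08), at 9.15 CPM against 5.85 CPM in CKI and 3.79 CPM in Baituling. The list medians were -0.08, -0.09 and 0.12.

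Genes of precursor activation and docking at the cell surface, 16 tested of 20, had medians of 0.11, 0.04 and -0.02, with 0 called between CKI and Kushen. In CKI over Baituling 3 were higher and 0 lower, and in Kushen over Baituling 2 were higher and 1 lower. PLAUR, the receptor that holds urokinase at the cell surface, was highest in Baituling at 241 CPM and lowest in Kushen at 101.1 CPM (Kushen over Baituling -1.26 ± 0.05, SE, edgeR adjusted p = 4.58e-14). CLDN1, a tight junction protein, was higher in CKI than in Baituling by 1.26 ± 0.13 (SE, edgeR adjusted p = 4.74e-08).

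Transcription factors known to bind metalloproteinase promoters, 22 tested of 24, had medians of 0.3, -0.2 and -0.44. In CKI over Kushen 5 were higher and 0 lower, in CKI over Baituling 2 were higher and 1 lower, and in Kushen over Baituling 0 were higher and 5 lower. The AP-1 subunit FOS was at 155 to 172 CPM in CKI, at 13.2 to 21.7 CPM in Kushen and at 209 to 231 CPM in Baituling. It was 10.3-fold higher in CKI than in Kushen (log2 fold change 3.37 ± 0.11, SE, edgeR adjusted p = 4.18e-14) and 14.0-fold lower in Kushen than in Baituling (-3.8 ± 0.11, SE, edgeR adjusted p = 4.12e-16). FOSB had the same order, at 15.3, 1.47 and 38.7 CPM. The other 3 factors called higher in CKI over Kushen, named after their values were seen, were highest in CKI. JUNB, another AP-1 subunit, was at 382 CPM in CKI, 150.0 CPM in Kushen and 203 CPM in Baituling. ATF3, a stress-induced factor, was at 30.1, 10.4 and 12.8 CPM, and the epithelial ETS factor ELF3 was at 8.08, 4.02 and 3.01 CPM.

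Among inducers and receptors, 15 tested of 18, 2 were called higher and 0 lower in CKI over Kushen, 0 higher and 3 lower in CKI over Baituling and 0 higher and 4 lower in Kushen over Baituling, with medians of 0.04, -0.07 and -0.22. The cytokine IL1B, a known inducer of MMP1 and MMP3, was at 23.8 to 27.2 CPM in CKI, at 11.5 to 13.0 CPM in Kushen and at 36.6 to 39.5 CPM in Baituling (CKI over Kushen 1.08 ± 0.07, SE, edgeR adjusted p = 2.14e-09). IL6 was lower in CKI than in Baituling by a log2 fold change of -2.17 ± 0.07 (SE, edgeR adjusted p = 7.37e-16). S100A4, a calcium-binding protein linked to metastasis, was lowest in CKI at 218 CPM, against 380.2 CPM in Kushen and 444 CPM in Baituling.

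Collagens and other matrix proteins, the substrates of these enzymes, numbered 19 tested of 21. In CKI over Kushen 1 was higher and 0 lower, in CKI over Baituling 3 were higher and 5 lower, beside 11.2% and 7.91% of all genes, and in Kushen over Baituling 1 was higher and 4 lower, beside 8.50% and 6.73%, with medians of -0.08, -0.65 and -0.36. The gene higher in CKI over Kushen was COL3A1, named after its values were seen. It had 14 to 27 counts per library in CKI and 2 to 4 in Kushen, and entered the test through the CKI libraries alone. The glycoprotein TNC, tenascin C, was at 19.4 CPM in CKI, 27.8 CPM in Kushen and 139 CPM in Baituling, 7.16-fold lower in CKI than in Baituling (log2 fold change -2.84 ± 0.05, SE, edgeR adjusted p = 3.76e-19). FN1, fibronectin, was at 481 CPM in CKI, 589 CPM in Kushen and 1383 CPM in Baituling (CKI over Baituling -1.52 ± 0.05, SE, edgeR adjusted p = 6.01e-16). COL6A2, a chain of the beaded-filament collagen VI, was lower in Kushen than in Baituling by -1.02 ± 0.06 (SE, edgeR adjusted p = 6.06e-12), as was NFKB1 of the transcription factor list by -1.04 ± 0.06 (SE, edgeR adjusted p = 2.12e-11).

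**Figure D5:**
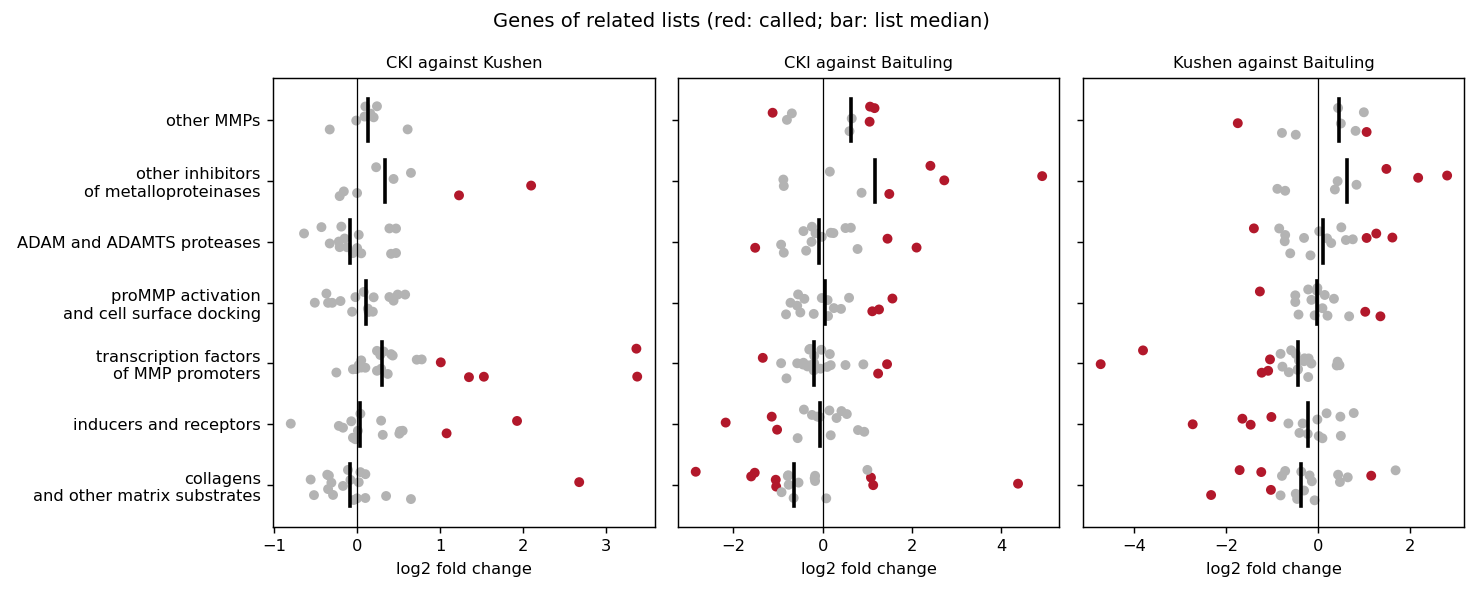
Log2 fold change (x axis) of every tested gene (points) in each of the 7 related lists (y axis) for the 3 contrasts, with called genes in red and a bar at each list's median. Called genes of the transcription factor list lie to the right for CKI over Kushen, where 5 were higher and 0 lower, and to the left for Kushen over Baituling, where 0 were higher and 5 lower.

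The genes whose pattern was most like each member were sought by Pearson correlation of log2 CPM over the 9 libraries, among 11965 genes that were not rare. Since the libraries fall into 3 injections, such a value mostly compares group levels, and it is given as a description. For MMP1 these were CDKN1A, TNFSF15 (both r = 0.996) and CSRNP1 (r = 0.994), and 95 other genes had r above 0.95. CDKN1A was at 368 CPM in CKI, 223 CPM in Kushen and 223 CPM in Baituling. The pattern of MMP14 was far more common, with 1884 other genes above 0.95 and FLOT2, RPS6KA4 and OBSL1 (all r = 0.999) the nearest.

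TIMP3 likewise shared its pattern with 1911 other genes above 0.95, led by NUDCD3, TUBA1A and ANLN (all r = 0.999). TIMP1 was nearest to RNF40 (r = 0.983), LURAP1L (r = 0.982) and NEURL1 (r = 0.981), with 92 genes above 0.95. For TIMP2, the most even of these members, 1 gene was above 0.95, and its nearest genes were LDOC1 (r = 0.95), CSF1 (r = 0.937) and LRP5 (r = 0.926). With such small differences between groups, spread within groups weighs more in r, so this count does not show how rare its pattern was. MMP9 and MMP13 were too low for this search.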

How the data were processed

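The authors trimmed reads with Trim Galore 0.3.7, aligned them with STAR 2.5.3a to hg19 and deposited whole-number counts per gene without normalization, per the labels and the study's methods. The counting program and annotation are not given in the sources used here, and the libraries were unstranded. The table had 24566 rows, and 222 repeats of a gene with identical counts were dropped. Genes were named from GENCODE on GRCh37.

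Counts were filtered with filterByExpr (minimum count 10, minimum total 15), scaled by TMM and tested two-sided with glmQLFit and glmQLFTest of edgeR 4.0.16 in R 4.3.3, with group as the only term. The fit was tested on simulated data. Intervals are the estimate ± 1.96 SE. Named genes were the 9 members, up to 3 called genes per list with the smallest adjusted p and a mean log2 CPM of at least 1, the 3 genes most like each member above that level, and the cell line markers. A gene that this rule names is not reported here. The members and lists were chosen with earlier results of these data known. Alternatives included other scalings and filters, DESeq2 1.42.0, glmTreat, a replicate block and leaving out each library. MMP12, MMP28 and PRSS2 of the lists were not analysed here.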

Additional observations from a re-analysis of the deposited data

How the results depend on the processing

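Direction and side of the threshold held in 391 of 414 recomputed values of single members, 6 reversed, 6 lost their call and 11 gained it. The number of members called between CKI and Kushen was 2, and it was 1 with at least 10 counts in every library, where MMP13 could not be tested, and 5 with no fold threshold. Between Kushen and Baituling it was 3, and it was 5 with no fold threshold and 1 with glmTreat against a log2 fold change of 1, which requires a difference significantly beyond that size (adjusted p = 0.0527 for MMP13 and 0.76 for MMP14). Leaving out each library gave 2 to 3, 4 to 4 and 3 to 3 members called for CKI over Kushen, CKI over Baituling and Kushen over Baituling. The members were not always the same: without the first Kushen library MMP14 (-0.97) lost its call for Kushen over Baituling and MMP9 (-1.45, adjusted p = 0.0199) gained it. MMP9 for CKI over Baituling (0.05) ranged from -0.11 to 0.36 over those fits. TIMP2 for CKI over Baituling (-0.06) was 0.23 with unscaled library totals and 0.01 with upper quartile scaling, and MMP14 for Kushen over Baituling was -0.97 with the latter. The cause of these changes was not tested beyond what each setting alters. Correlations of same-numbered libraries, taken after centring each group, were between -0.075 and 0.123, and those of differently numbered libraries were between -0.148 and 0.181. No pairing by replicate number was seen, but with 3 centred libraries a group these values cannot exclude it. With the replicate number as a block, 3, 4 and 3 members were called, the addition being MMP9 for CKI over Kushen (1.01, adjusted p = 0.0455), which was also called with library totals (1.07, adjusted p = 0.0468). At 20144628 counts or more per library, the 16 to 22 counts of MMP2, 9 to 24 of MMP3 and 24 to 51 of MMP9 per group left wide intervals.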
